A study of Mus musculus with 12 samples.

Results

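Nuclear genes of oxidative phosphorylation (OXPHOS) were taken as every protein-coding gene of the GENCODE vM39 mouse annotation, on chromosomes 1 to 19 and X, with a symbol starting with Nduf, Uqcr, Sdha, Sdhb, Sdhc, Sdhd, Cox4, Cox5, Cox6, Cox7, Cox8 or Atp5. This gave 102 genes of 21603, under 101 symbols, because Atp5po has 2 gene identifiers (ENSMUSG00000022956.13 and ENSMUSG00000116933.2). By textbook role, 46 belonged to complex I, 8 to complex II, 8 to complex III, 21 to complex IV and 19 to complex V. Of the 102 genes, 86 encode subunits, 12 encode assembly factors, and 2 are copies of other members (Cox5b-ps and Ndufb11b). The remaining genes are Cox7a2l, which joins complexes III and IV into supercomplexes, and Atp5if1, which inhibits ATP synthase.

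The respiratory chain passes electrons from NADH (complex I) and succinate (complex II) through complexes III and IV to oxygen, and ATP synthase (complex V) uses the resulting proton gradient to make ATP. Nearly all of its subunits are encoded in the nucleus, by housekeeping genes that often start in CpG-rich promoters. Blood stem cells are known to rely less on this pathway than the progenitors they give rise to. H2AK119ub, histone H2A carrying ubiquitin, is written by Polycomb repressive complex 1 and removed by BAP1, a deubiquitinase that works with its cofactor ASXL1.

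The data were peak lists of 12 libraries, 1 per condition, from mouse c-Kit+ bone marrow cells, labelled as stem and progenitor cells with the genotype "mock". All cells, the vector controls included, carried a BAP1 retrovirus, so every comparison is made on added BAP1. In the first set, H2AK119ub was profiled by CUT&RUN, in which an antibody directs a nuclease to the chromatin it binds. Its cells carried ASXL1 residues 1 to 590 with the 10RA change (condensation-impaired per the labels), the same residues with 25RA (condensation-defective), unchanged residues 1-590, or an empty vector. The second set held residues 1 to 1067 with 34DN, with 36EQ (both described as charge-neutralized), unchanged 1-1067, and its own empty vector. BAP1 and ASXL1 were profiled by ChIP-seq with 10RA and with 1-590 only, from cells in which BAP1 or ASXL1 carried an HA tag. The labels describe antibodies to BAP1 or ASXL1 in one field and to HA in another. Inside the deposited lists for 25RA, 34DN and 36EQ the peaks are named by codes that do not match the titles, so these values go by title. The age and strain of the mice, and how many animals each library came from, are not given in the sources used here.

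With 1 library per condition, no difference between conditions could be tested, and all values below describe single libraries. The H2AK119ub lists of the 1-590 set held 20121 to 33855 peaks and those of the 1-1067 set 5302 to 6305. The share of these peaks with q of 0.05 or less was 86% to 96% in the 1-590 set and 22.7% to 32.7% in the 1-1067 set. Depth was read as the genome-wide background in fragments per base. It was 1.72 in 10RA, 1.86 in 25RA, 2.06 in 1-590 and 0.908 in the vector library, so the vector list of the first set was the shallowest. In the second set it was 2.59 in 34DN, 2.84 in 36EQ, 2.17 in 1-1067 and 2.92 in the vector library. Peak lists hold no RNA, so the labelled cell type could not be checked by expression. Promoter H2AK119ub peaks lay at 2 of 6 HSPC marker genes with 10RA, 4 with 25RA, 5 with 1-590 and 2 with vector, and at 0 to 1 in the second set. They lay at 0 to 1 of 5 myeloid, 0 to 2 of 4 erythroid, 0 to 3 of 4 lymphoid and 0 to 1 of 4 stromal and endothelial markers over the 8 libraries.

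A promoter was the canonical transcription start site (TSS) with 2 kb on each side in GRCm39, and a gene was listed where a deposited peak overlapped it by 1 base or more. The sequences below show the DNA directly upstream of the TSS for members listed in the most H2AK119ub libraries, 1 or 2 per complex, and for a testis-type isoform listed in none. Windows that overlap an annotated exon were passed over, which left no complex II subunit. Each run is the 200 bases before the TSS, 5′ to 3′ in the gene's direction, read from the GRCm39 genome. Capitals mark matches on either strand to NRF1 (GCGCATGC), ETS/GABPA (CCGGAAGT), YY1 (AANATGGCG), Sp/KLF (GGGCGG) or ESRRA (TNAAGGTCA), factors known to act on respiratory genes. Ndufb2 and Ndufc2 are complex I accessory subunits, Uqcrfs1 is the Rieske iron-sulfur protein of complex III, Ndufa4 and Cox7a2 are complex IV subunits, Atp5f1e is the epsilon subunit of ATP synthase, and Cox8c is a testis isoform of complex IV subunit 8.
Ndufb2 promoter, chr6:39569290-39569489, + strand: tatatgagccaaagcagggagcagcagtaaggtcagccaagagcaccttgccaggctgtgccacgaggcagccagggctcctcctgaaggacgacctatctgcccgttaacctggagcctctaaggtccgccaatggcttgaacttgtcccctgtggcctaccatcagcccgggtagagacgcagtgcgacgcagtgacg
Ndufc2 promoter, chr7:97049010-97049209, + strand: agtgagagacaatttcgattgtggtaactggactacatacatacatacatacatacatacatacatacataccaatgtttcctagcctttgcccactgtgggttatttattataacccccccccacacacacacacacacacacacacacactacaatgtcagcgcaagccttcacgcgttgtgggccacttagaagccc
Uqcrfs1 promoter, chr13:30729346-30729545, - strand: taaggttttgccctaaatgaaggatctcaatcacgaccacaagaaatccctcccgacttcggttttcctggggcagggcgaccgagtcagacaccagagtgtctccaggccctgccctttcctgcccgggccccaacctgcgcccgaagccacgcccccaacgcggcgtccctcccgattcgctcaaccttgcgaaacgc
Ndufa4 promoter, chr6:11907497-11907696, - strand: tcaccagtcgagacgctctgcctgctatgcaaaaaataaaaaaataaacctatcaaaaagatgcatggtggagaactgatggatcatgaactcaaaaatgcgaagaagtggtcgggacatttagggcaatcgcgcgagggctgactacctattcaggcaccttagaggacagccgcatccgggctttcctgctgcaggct
Cox7a2 promoter, chr9:79667163-79667362, - strand: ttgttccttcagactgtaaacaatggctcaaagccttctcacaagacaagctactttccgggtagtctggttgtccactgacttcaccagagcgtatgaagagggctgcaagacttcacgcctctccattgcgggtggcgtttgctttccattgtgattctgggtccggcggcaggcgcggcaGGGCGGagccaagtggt
Atp5f1e promoter, chr2:174305907-174306106, - strand: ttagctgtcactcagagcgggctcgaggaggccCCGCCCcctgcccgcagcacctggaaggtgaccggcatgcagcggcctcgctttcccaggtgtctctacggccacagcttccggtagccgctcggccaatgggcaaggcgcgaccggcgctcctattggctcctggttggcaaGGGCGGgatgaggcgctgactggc
Cox8c promoter, chr12:102865330-102865529, + strand: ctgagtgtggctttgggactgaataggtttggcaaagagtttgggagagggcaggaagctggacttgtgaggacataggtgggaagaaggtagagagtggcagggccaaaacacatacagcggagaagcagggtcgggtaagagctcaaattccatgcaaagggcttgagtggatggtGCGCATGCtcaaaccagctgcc

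Cox7a2 held 1 Sp/KLF match and Atp5f1e held 2 in these windows, and the single NRF1 match lay in Cox8c, the only one of the 7 with no H2AK119ub peak in any library. Ndufa4 was listed in 7 of the 8 H2AK119ub libraries with none of the 5 motifs in its window. Over the window from 250 bases before to 50 bases from the TSS, the NRF1 motif was found in 11 of 102 members (10.8%), against 3.38% of all genes and 5.84% of genes with a CpG-rich promoter. These 11 were Atp5mc2, Atp5me, Atp5mg, Cox6a1, Cox8c, Ndufa13, Ndufa6, Ndufaf4, Ndufaf5, Sdhb and Uqcr11. The Sp/KLF motif was in 46 members (45.1%, against 42.8% of all genes) and ETS/GABPA in 6 (5.88%, against 4.38%). YY1 was in 3 (2.94%, against 2.28%) and ESRRA in 3 (2.94%, against 1.25%). Among genes with a CpG-rich promoter the shares were 68.2% for Sp/KLF, 7.3% for ETS/GABPA, 4% for YY1 and 0.758% for ESRRA. The Sp/KLF share of members was below that of CpG-rich genes, but 26 of the 102 members have other promoters. ETS/GABPA, YY1 and ESRRA were in 6, 3 and 3 members, too few to set members apart from either background. Of the 11 members with an NRF1 match, a promoter H2AK119ub peak was listed at 7 with 10RA (63.6%), 7 with 25RA (63.6%), 10 with 1-590 (90.9%) and 7 with vector (63.6%). Of the 91 without one, it was listed at 57 (62.6%), 66 (72.5%), 75 (82.4%) and 54 (59.3%) in the same order. The 11 members are too few to give a direction in any 1 library. The second set gave 0 of 11 with 34DN, 0 with 36EQ, 1 with 1-1067 and 1 with vector, against 17, 11, 16 and 13 of the 91. Over all genes, the share listed was higher with an NRF1 match than without one in each of the 8 libraries. In the first set it was 54.2% against 41.2% with 10RA and 62.5% against 47.7% with 25RA. It was 81.5% against 54.7% with 1-590 and 58.6% against 40.1% with vector. In the second set it was 10.1% against 6.89% with 34DN and 9.32% against 8.56% with 36EQ. It was 11.5% against 9.19% with 1-1067 and 9.45% against 7.43% with vector. A match is a description of letters and not a bound site.

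Most OXPHOS promoters carried a deposited H2AK119ub peak in the first set. Peaks were listed at 64 of 102 promoters with 10RA (62.7%, Wilson 95% interval 53.1% to 71.5%), 73 with 25RA (71.6%, 62.2% to 79.4%), 85 with 1-590 (83.3%, 74.9% to 89.3%) and 61 with vector (59.8%, 50.1% to 68.8%). Over all genes the shares were 41.7% with 10RA, 48.2% with 25RA, 55.6% with 1-590 and 40.8% with vector. Intervals cover counting error only. In bulk chromatin, a mark on fewer cells and less of the mark per cell cannot be told apart.

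OXPHOS promoters were CpG-rich in 76 of 102 cases (74.5%), against 10022 of all genes (46.4%), where CpG-rich means GC above 0.5 and CpG observed over expected above 0.6 in about 1 kb around the TSS. Among all CpG-rich genes, peaks were listed at 65.1% with 10RA, 74.5% with 25RA, 87.3% with 1-590 and 67.2% with vector. The 76 CpG-rich members were listed in 58 cases with 10RA (76.3%), 59 with 25RA (77.6%), 69 with 1-590 (90.8%) and 51 with vector (67.1%). The share of all 102 members stood above that of all genes in these 4 libraries and below that of CpG-rich genes. That second comparison sets a mixed group beside CpG-rich genes alone. Wilson 95% intervals of the CpG-rich members were 65.6% to 84.5% with 10RA and 67.1% to 85.5% with 25RA. They were 82.2% to 95.5% with 1-590 and 55.9% to 76.6% with vector. The share of CpG-rich genes lay inside the interval with 25RA, 1-590 and vector, and just below it with 10RA. The 26 members with other promoters were listed in 6, 14, 16 and 10 cases in 10RA, 25RA, 1-590 and vector. Over all 21603 genes, 8999, 10407, 12012 and 8807 were listed in the same order. Of these, 6523, 7462, 8752 and 6737 were among the 10022 CpG-rich genes. The remainder are genes with other promoters, the matched background of the 26, for which no share was computed.

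**Figure D1:**
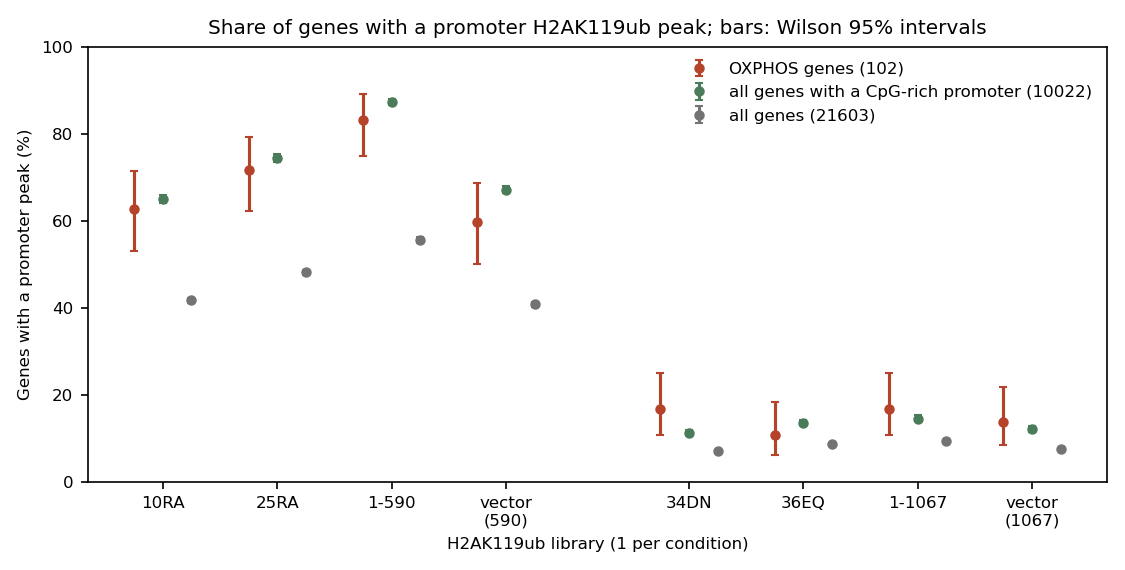
Share of genes with a promoter H2AK119ub peak (vertical axis, percent) in each of 8 libraries, for the 102 OXPHOS genes, all CpG-rich genes and all genes; bars are Wilson 95% intervals, which cover counting error only. The OXPHOS share was 83.3% with 1-590 and 59.8% with its vector, and lay between 10.8% and 16.7% in the 1-1067 set.

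Few OXPHOS promoters were listed in the second set. Peaks lay at 17 OXPHOS promoters with 34DN (16.7%, 10.7% to 25.1%), 11 with 36EQ (10.8%, 6.13% to 18.3%), 17 with 1-1067 (16.7%, 10.7% to 25.1%) and 14 with vector (13.7%, 8.36% to 21.7%). The all-gene shares were 7% with 34DN, 8.58% with 36EQ, 9.27% with 1-1067 and 7.49% with vector. The shares of CpG-rich genes were 11.3%, 13.6%, 14.5% and 12.1% in the same order. Those of the 76 CpG-rich members were 18.4%, 10.5%, 18.4% and 14.5%, so they were lower than CpG-rich genes with 36EQ. Many of these peaks were weak: q of 0.05 or less held for 11 of 17 members with 34DN, 10 of 11 with 36EQ, 7 of 17 with 1-1067 and 6 of 14 with vector.

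Across all 8 H2AK119ub libraries, 4 members were listed in every one (3.92%, against 0.907% of all genes and 1.61% of CpG-rich genes) and 13 in none (12.7%, against 33.7% and 5.48%). The 4 were Atp5mc1, which encodes the c subunit of the ATP synthase rotor ring, Ndufs8, a core iron-sulfur subunit of complex I, Ndufv3, an accessory subunit of complex I, and Uqcr10, a small subunit of complex III. Atp5mc1 (TSS at position 95966461 of chromosome 11, minus strand) held 20 fragments at its summit over a local background of 2.59 with 10RA, 32 over 3.48 with 25RA, 69 over 5.66 with 1-590 and 18 over 1.85 with vector. In the second set it held 20 over 3.41 with 34DN, 19 over 3.71 with 36EQ, 19 over 3.38 with 1-1067 and 17 over 4.39 with vector. All 8 summits of Atp5mc1 lay between -338 and -247 bases from its TSS (negative is upstream). The 1-590 library had the most fragments, and also the highest genome background of its set (2.06, against 0.908 with vector). Fragment counts here and below are not scaled for depth, so a larger count in another library does not show more of the mark. The deposited fold is the authors' ratio of summit to local background, a value to be ranked only within a list. The fold of Atp5mc1 was the largest of all members with 34DN (4.76) and with 1-1067 (4.57).

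Ndufs8 held 32 fragments with 10RA, 27 with 25RA, 43 with 1-590 and 20 with vector, and 13 with 34DN, 21 with 36EQ, 18 with 1-1067 and 20 with the second vector. Its local background was 3.16 to 6.96 fragments, and its q of 0.0641 with 34DN was the only one above 0.05. Uqcr10 shares its peak with Zmat5, whose TSS lies 278 bases away, and held 11 fragments with 10RA, 13 with 25RA, 21 with 1-590 and 11 with vector. Ndufv3 was listed in the second set through peaks of different places: its summits lay at -366 bases from the TSS with 34DN, -1787 with 36EQ, -1976 with 1-1067 and -229 with vector. A further 3 members were listed in 7 libraries: Cox7a2l and Uqcrh, the hinge protein of complex III, in all but the 1-1067 vector, and Ndufa4 in all but 34DN.

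The 13 genes listed in no H2AK119ub library were mostly tissue-restricted isoforms, complex I genes and ATP synthase genes. Cox4i2, Cox6a2, Cox7b2, Cox8b and Cox8c are tissue-restricted isoforms of complex IV, known from lung, muscle or testis, and Cox5b-ps is a copy; none of the 6 has a CpG-rich promoter. Ndufa1 and Ndufa7, accessory subunits of complex I, Ndufaf1 and Sdhaf3, assembly factors of complexes I and II, and 1 of the 2 Atp5po entries have CpG-rich promoters. The other Atp5po entry, for the stalk subunit OSCP, has no CpG-rich promoter; its nearest peak lay 2145 bases from the TSS with 10RA and 2019 with 1-590. Ndufa7 starts 1 base from the TSS of Rps28, a ribosomal protein gene, and Ndufa1 49 bases from that of Rnf113a1. Atp5f1d, the delta subunit of ATP synthase, also without a CpG-rich promoter, had its nearest peak outside the window in each library, 2536 bases from the TSS with 10RA, 2292 with 25RA and 2519 with 1-590, and 6117 with vector.

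**Figure D2:**
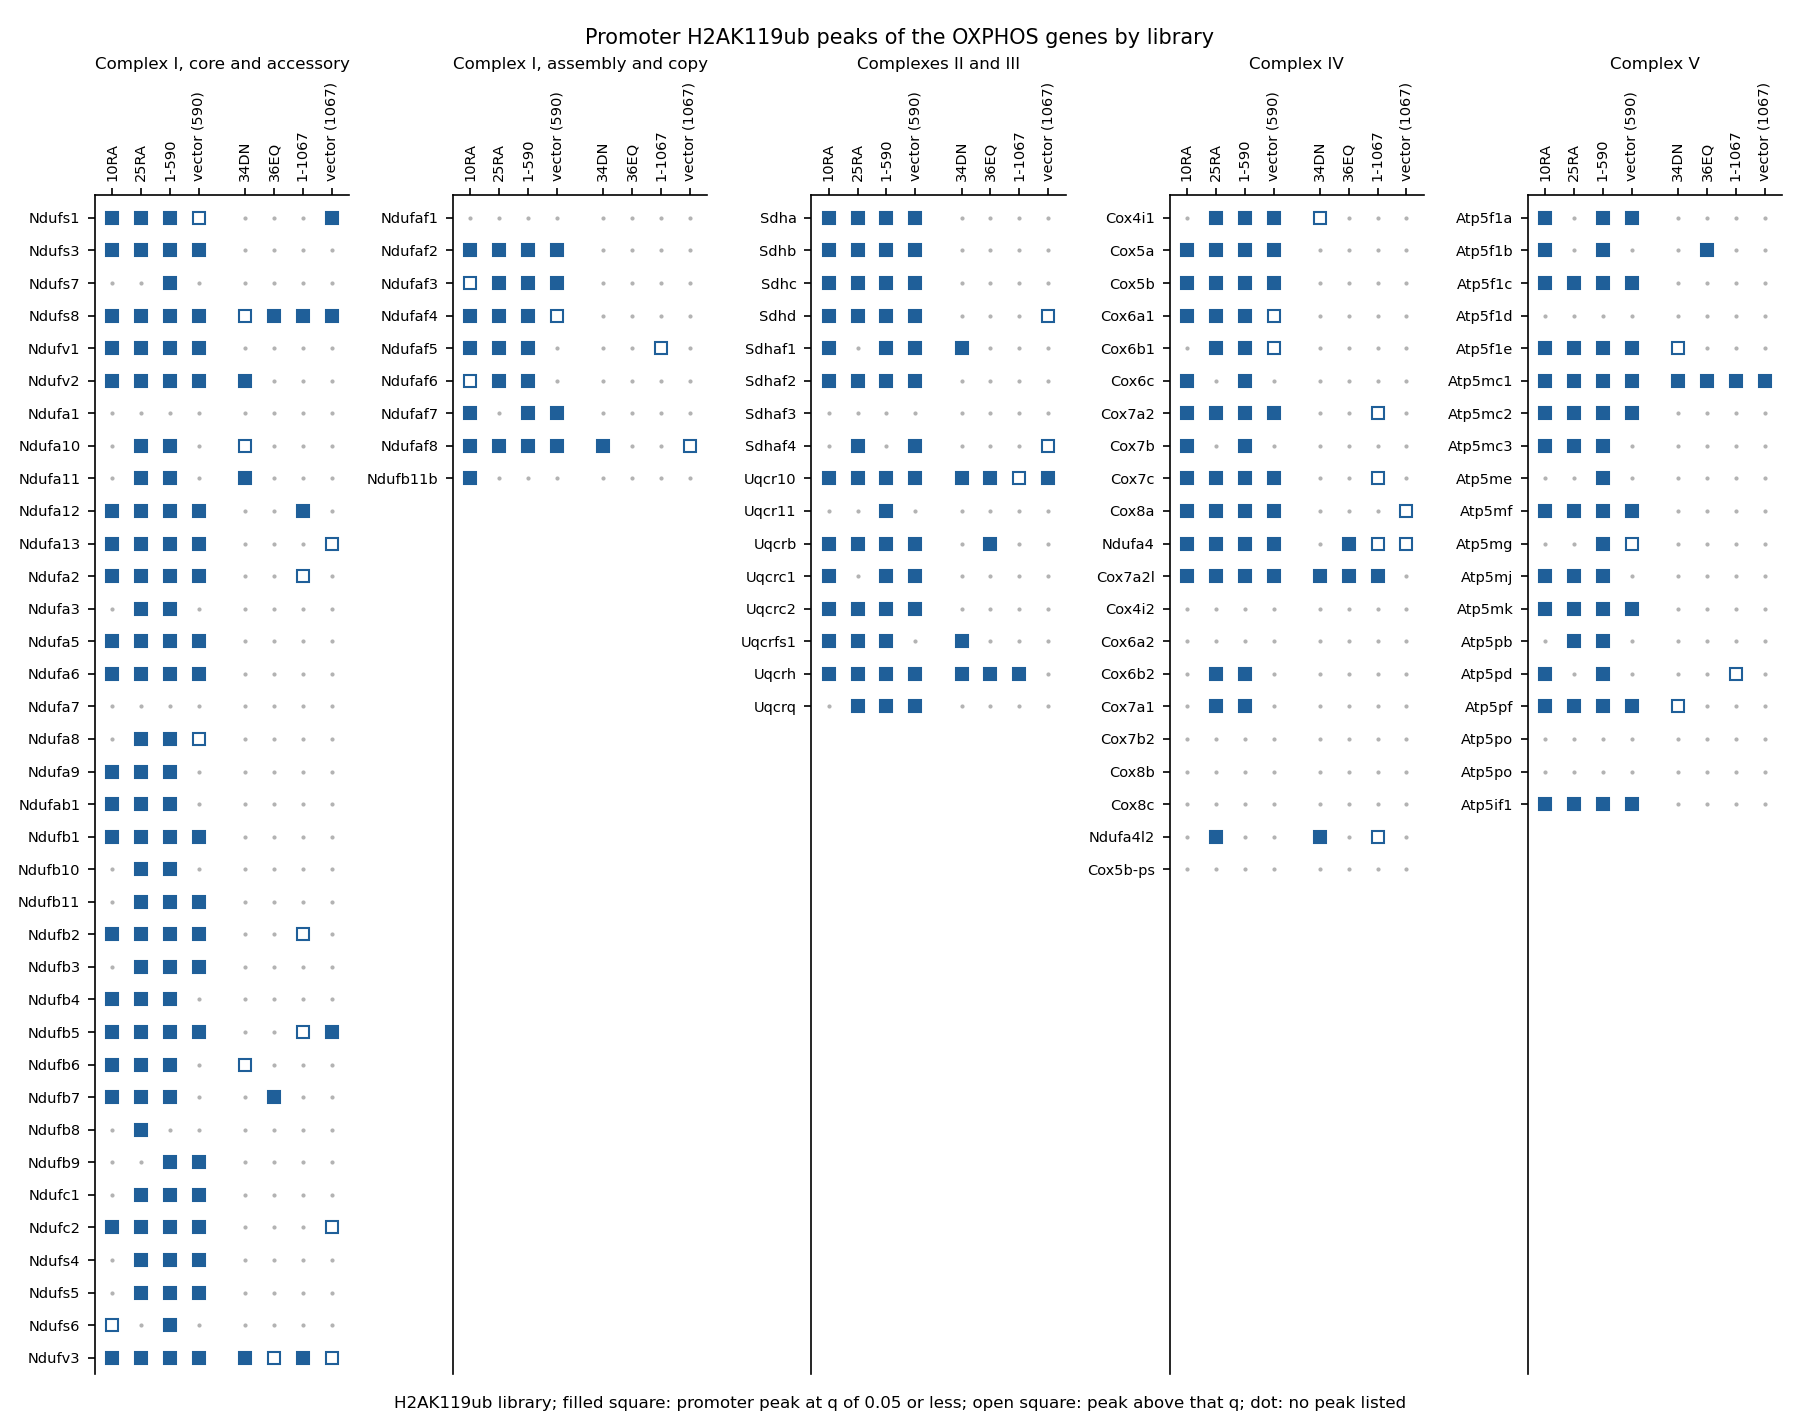
Promoter H2AK119ub peaks of OXPHOS genes (rows, grouped by complex) in 8 libraries (columns); filled squares are peaks with q of 0.05 or less, open squares peaks above it, and dots no listed peak. Atp5mc1, Ndufs8, Ndufv3 and Uqcr10 have squares in all 8 columns, and the tissue-restricted isoforms of complex IV have few.

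Complex I, which oxidises NADH, had 46 members, and peaks were listed at 29 with 10RA, 37 with 25RA, 41 with 1-590 and 28 with vector. Of its 7 core subunits, 5 were listed with 10RA, 5 with 25RA, 7 with 1-590 and 6 with vector. Ndufv1, the subunit that binds NADH and FMN, held 20 fragments with 10RA, 26 with 25RA, 34 with 1-590 and 14 with vector, and had no peak in the second set. Ndufs1, the largest iron-sulfur subunit, held 8 with 10RA, 11 with 25RA, 23 with 1-590 and 6 with vector (q = 0.0503 in that list), under a peak shared with Eef1b2. Ndufs7, a core iron-sulfur subunit, was listed with 1-590 alone. Of the 30 accessory subunits, 16 were listed with 10RA, 26 with 25RA, 27 with 1-590 and 17 with vector. Of the 8 complex I assembly factors, 7 were listed with 10RA, 6 with 25RA, 7 with 1-590 and 5 with vector.

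All 4 subunits of complex II, the succinate dehydrogenase, were listed in all 4 libraries of the first set. Sdha, the flavoprotein that oxidises succinate, held 16 fragments with 10RA, 18 with 25RA, 17 with 1-590 and 14 with vector. Its peak also covers the promoter of Ccdc127, 79 bases away. Sdhd, a membrane anchor, held 17 with 10RA, 18 with 25RA, 30 with 1-590 and 15 with vector. Complex III had 8 members, listed in 6 cases with 10RA, 6 with 25RA, 8 with 1-590 and 6 with vector. Uqcrc1, a core subunit, held 13 fragments with 10RA, 15 with 1-590 and 9 with vector, and was not listed with 25RA. Uqcrh held 13 with 10RA, 20 with 25RA, 35 with 1-590 and 13 with vector, under a peak shared with Lrrc41. Its 25RA summit lay at -1506 bases and its 1-590 summit at -223.

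Complex IV, cytochrome c oxidase, was counted by isoform. Of its 11 ubiquitous subunits, 9 were listed with 10RA, 9 with 25RA, 11 with 1-590 and 9 with vector, and 9 of the 11 have CpG-rich promoters. Of its 8 tissue-restricted isoforms, 0 were listed with 10RA, 3 with 25RA, 2 with 1-590 and 0 with vector, and 0 have CpG-rich promoters. All-gene shares were 41.7% with 10RA, 48.2% with 25RA, 55.6% with 1-590 and 40.8% with vector. Of the 26 members of any complex without a CpG-rich promoter, which include these 8, 6 were listed with 10RA and 14 with 25RA. With 1-590 it was 16 of the 26, and with vector 10. What goes with the low counts of the isoforms was not tested. The 3 isoforms listed with 25RA were Cox6b2, Cox7a1 and Ndufa4l2, a paralogue of Ndufa4 known to be induced by hypoxia. Cox5a held 16 fragments over a local background of 2.18 with 10RA and 21 over 3.3 with 25RA. It held 41 over 4.67 with 1-590 and 21 over 2.08 with vector. Cox4i1, the ubiquitous form of subunit 4, held 26 with 25RA, 38 with 1-590 and 13 with vector and was not listed with 10RA; its peak also covers the promoters of Emc8 and Gm27021. Cox7c held 19 with 10RA, 24 with 25RA, 26 with 1-590 and 12 with vector, and its fold of 7.7 was the largest of the members with 25RA.

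Complex V had 19 members, listed in 13 cases with 10RA, 11 with 25RA, 16 with 1-590 and 10 with vector. Atp5f1b, the catalytic beta subunit, held 9 fragments with 10RA and 23 with 1-590 and was listed with neither 25RA nor vector; in the second set it was listed with 36EQ alone, with 19 fragments. Atp5f1a, the alpha subunit, held 9 with 10RA, 24 with 1-590 and 13 with vector. Atp5pb, the b subunit of the peripheral stalk, held 14 with 25RA and 25 with 1-590 and was not listed with 10RA or vector. Its peak also covers the promoter of Wdr77. Its fold of 7.86 was the largest among members listed with 1-590 and not with vector. Complex V in the second set was listed in 3 cases with 34DN, 2 with 36EQ, 2 with 1-1067 and 1 with vector.

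The first question was how truncated ASXL1 1-590, added to BAP1, changes the mark relative to the empty vector. Promoter peaks were listed at 25 OXPHOS genes with 1-590 and not vector (24.5%), and at 1 gene, the complex II assembly factor Sdhaf4, with vector and not 1-590. Over all genes the shares were 17.9% with 1-590 only and 3.05% with vector only. Of the members listed in 1 library of this pair, 96.2% were listed with 1-590 (exact 95% interval 80.4% to 99.9%), against 85.4% of all genes and 89.2% of CpG-rich genes. The 25 comprised 13 complex I, 2 complex III, 4 complex IV and 6 complex V genes. Those with the largest fold were Atp5pb, Ndufab1 (the mitochondrial acyl carrier protein), Ndufaf5 (an assembly factor), Atp5mj (a small ATP synthase subunit) and Ndufb7 (an accessory subunit), with 23 to 39 fragments at the summit. The 78 genes of mitochondrial ribosomal proteins, also nuclear and mitochondrial, showed 26 with 1-590 only and 0 with vector only. The vector library was the shallower of the pair; after scaling of all 4 libraries to its depth, 21 members were listed with 1-590 only and 2 with vector only, against 13.7% and 4.92% of all genes.

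10RA against vector gave a near-even split. Peaks were listed at 16 members with 10RA only and 13 with vector only, against 11.2% and 10.3% of all genes. The 5 with the largest fold among the 16 were Atp5mj, Ndufab1, Ndufb6, Cox7b and Ndufb4, with 11 to 20 fragments. Among the 13 were Ndufb11, Ndufc1, Ndufs5 and Ndufb9. The Ndufc1 peak in the vector list has its summit 2000 bases from the TSS, at the edge of the window. The direction depended on depth: scaled to the vector library, 10 members were listed with 10RA only and 16 with vector only, against 8.43% and 12.9% of all genes. With lists of equal length the counts were 11 and 18, against 8.44% and 12.9%.

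25RA against vector gave 19 members with 25RA only and 7 with vector only, against 14.1% and 6.65% of all genes. The largest folds among the 19 were at Atp5pb, Ndufb4, Ndufab1, Ndufaf5 and Ndufb8, with 11 to 16 fragments. The 7 included Ndufaf7, Atp5f1a, Ndufb9, Uqcrc1, Atp5mg and Sdhaf1. With lists of equal length the split was 11 and 11, against 9.14% and 10.6% of all genes, so all genes moved toward vector too. Scaled to the depth of the vector library, 15 members were listed with 25RA only and 11 with vector only, against 10.1% and 9.58% of all genes.

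10RA against 1-590 asks what the condensation-impaired form retains. Only Ndufb11b was listed with 10RA and not 1-590, through a peak of 10 fragments with its summit at -1725 bases, and 22 members were listed with 1-590 and not 10RA (21.6%). Over all genes these shares were 4.56% with 10RA only and 18.5% with 1-590 only, and over CpG-rich genes 3.18% and 25.4%. Of members listed with 1-590, 25.9% were not listed with 10RA, against 33.3% of all genes and 29.1% of CpG-rich genes. Of the 22, 13 belong to complex I, 2 to complex III, 4 to complex IV and 3 to complex V, and 0 to complex II. Atp5pb, Ndufb3, Ndufc1 and Atp5mg were among those with the largest folds with 1-590, with 19 to 25 fragments, and all 22 had q of 0.05 or less there. The share listed with 10RA among members listed in 1 library of the pair was 4.35% (exact 95% interval 0.11% to 21.9%), against 19.8% of all genes and 11.1% of CpG-rich genes. Scaled to the depth of the shallowest library, 1 member was listed with 10RA only and 26 with 1-590 only, against 4.91% and 18.2% of all genes.

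25RA against 1-590 gave 3 members with 25RA only (Sdhaf4, Ndufb8 and Ndufa4l2) and 15 with 1-590 only, against 5.57% and 13% of all genes. The peak of Ndufa4l2 stood on a local background of 16.3 fragments, the highest of the members in that list, with a fold of 2.14. The 15 comprised 5 complex I, 1 complex II, 2 complex III, 2 complex IV and 5 complex V genes. Large folds were at Ndufaf7, Atp5f1a, Atp5mg and Atp5f1b. Of members listed with 1-590, 17.6% were not listed with 25RA, against 23.4% of all genes and 19.4% of CpG-rich genes. The 5 comparisons of this set reuse the same 4 libraries, and the 5 of the second set likewise, so their lists are not independent.

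Across the 4 libraries of the first set, 44 members (43.1%) were listed in all, against 26.9% of all genes and 47.3% of CpG-rich genes, and 13 in none (12.7%, against 35% of all genes). A group of 10 members (9.8%, against 5.38% of all genes) was listed with 10RA, 25RA and 1-590 and not with vector: Atp5mc3, Atp5mj, Ndufa9, Ndufab1, Ndufaf5, Ndufaf6, Ndufb4, Ndufb6, Ndufb7 and Uqcrfs1. A group of 3 (2.94%, against 5.69% of all genes) was listed with 1-590 alone: Atp5me, Ndufs7 and Uqcr11.

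**Figure D3:**
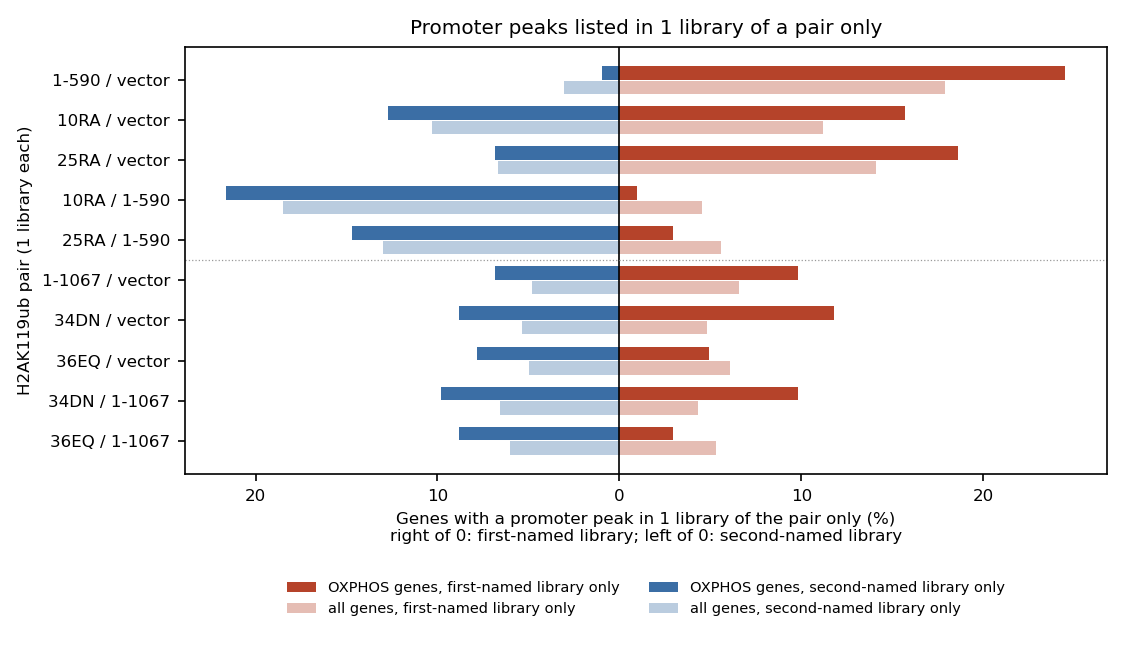
Percent of genes with a promoter H2AK119ub peak in 1 library of each pair only; right of 0 the first-named library, left of 0 the second-named, dark bars the 102 OXPHOS genes and pale bars all genes. The OXPHOS bars follow the side of the all-gene bars in the first set, with 24.5% in 1-590 only and 0.98% in vector only at the top.

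In the second set, 1-1067 against vector gave 10 members with 1-1067 only and 7 with vector only, against 6.55% and 4.78% of all genes. Among the 10 were Ndufa12, an accessory subunit of complex I, Uqcrh, Cox7a2l, Cox7a2 and Ndufaf5; of the 10 peaks, 7 had q above 0.05. Among the 7 were Ndufs1, Ndufc2, Cox8a, Sdhd and Ndufaf8, with q above 0.05 in 6. 34DN against vector gave 12 members with 34DN only and 9 with vector only, against 4.84% and 5.33% of all genes. Large folds were at Uqcrh, Ndufa11, Cox7a2l, Uqcrfs1 and Ndufv2 with 34DN, and at Ndufs1, Ndufb5, Ndufc2 and Cox8a with vector. 36EQ against vector gave 5 members with 36EQ only (Uqcrh, Atp5f1b, Cox7a2l, Ndufb7 and Uqcrb) and 8 with vector only, led by Ndufs1 and Ndufb5, against 6.06% and 4.98% of all genes. With peaks of q of 0.05 or less alone, the split for 36EQ turned to 6 and 2, against 3.62% and 1.96% of all genes.

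34DN against 1-1067 gave 10 members on each side, against 4.3% of all genes with 34DN only and 6.57% with 1-1067 only. Ndufaf8, Ndufa11, Uqcrfs1, Ndufv2 and Atp5f1e led with 34DN, and Ndufa12, Ndufb5, Cox7a2 and Ndufaf5 were among the leading members with 1-1067. 36EQ against 1-1067 gave 3 members with 36EQ only (Atp5f1b, Ndufb7 and Uqcrb) and 9 with 1-1067 only, led by Ndufa12, Ndufb5, Cox7a2, Ndufaf5 and Cox7c, against 5.31% and 6% of all genes. Of those 9 peaks, 8 had q above 0.05, and at q of 0.05 or less the split turned to 5 and 2, against 3.03% and 2.76% of all genes. Of all members, 4 were listed in all 4 libraries of the second set (3.92%, against 1.05% of all genes and 1.76% of CpG-rich genes) and 66 in none (64.7%, against 78.9% and 67.5%).

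The peaks themselves lay close to the start sites. In the first set the median summit was 98 bases downstream of the TSS with 10RA, 102 with 25RA, 105 with 1-590 and 128 with vector, against 105 over all genes with 1-590 and 111 with vector. The all-gene medians with 10RA and 25RA lay farther downstream than those of the members. Summits within 500 bases of the TSS made up 85.9% of member peaks with 10RA, 84.9% with 25RA, 90.6% with 1-590 and 85.2% with vector, against 69% to 76.1% of all promoter peaks and 75.4% to 81.5% of those at CpG-rich genes. In the second set the median summit lay upstream, at -173 bases with 34DN, -131 with 36EQ, -100 with 1-1067 and -88.5 with vector. The all-gene medians were -104, -85, -64 and -34 in the same order. The median summits of the 2 sets thus lay on opposite sides of the TSS, in OXPHOS genes and in all genes. The 2 vector libraries, which carry no ASXL1 form, also lay on opposite sides, at 128 and -88.5 bases in OXPHOS genes. Over all genes they lay at 111 and -34 bases. The sets were labelled as separate batches, and the cause of the shift was not tested.

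**Figure D4:**
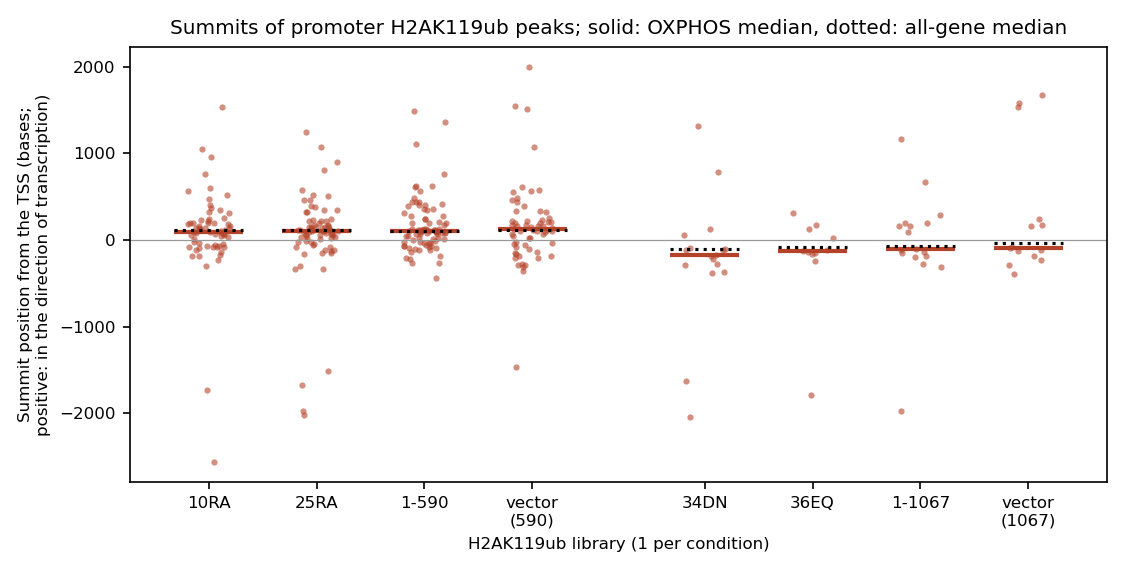
Position of each OXPHOS promoter peak summit from the TSS in bases (vertical axis, positive downstream) in 8 libraries; points are genes, solid lines OXPHOS medians and dotted lines all-gene medians. OXPHOS medians lie at 98 to 128 bases in the first set and at -173 to -88.5 bases in the second.

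OXPHOS peaks stood on lower surroundings than other promoter peaks. The local background, as a multiple of the library's genome background, had a median of 1.36 with 10RA, 1.63 with 25RA, 1.74 with 1-590 and 1.95 with vector, against 2.16, 2.22, 2.46 and 2.73 over all promoter peaks and 2.04, 2.13, 2.42 and 2.68 over CpG-rich ones. A multiple above 5 was reached by 0 members with 10RA, 1 with 25RA (Ndufa4l2), 0 with 1-590 and 0 with vector, against 9.29%, 7.37%, 10.1% and 14% of all promoter peaks. The median summit held 13 fragments with 10RA, 16 with 25RA, 23 with 1-590 and 13 with vector, below the all-gene 18, 20, 27 and 15. With fewer fragments on a lower background, the median fold of members ranked at percentile 69.9 of all promoter peaks with 10RA, 67 with 25RA, 70.5 with 1-590 and 62.4 with vector. It ranked at percentile 67.4 with 34DN, 82.6 with 36EQ and 67.4 with 1-1067, and at 42.3 with the vector of that set, below the middle of its list. The leading members by fold were Ndufb1, Cox7a2l, Sdhd, Sdha and Ndufaf2 with 10RA, Cox7c, Ndufb5, Atp5mc1, Ndufb1 and Sdha with 25RA, and Ndufa12, Atp5mc1, Ndufb5, Ndufb1 and Ndufv3 with 1-590. With vector they were Atp5pf, Ndufb11, Cox5a, Sdha and Ndufa12. The Atp5pf peak in the vector list has its summit 1075 bases downstream of the TSS. It also covers the promoter of Gabpa, whose TSS lies 980 bases from that of Atp5pf. In the second set the leading members included Atp5mc1, Uqcrh, Ndufaf8, Uqcr10 and Ndufa11 with 34DN, and Uqcrh, Uqcr10, Atp5f1b, Atp5mc1 and Ndufs8 with 36EQ. They included Atp5mc1, Ndufa12, Ndufs8 and Uqcrh with 1-1067, and Ndufs1, Ndufb5, Ndufs8, Atp5mc1 and Uqcr10 with vector.

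**Figure D5:**
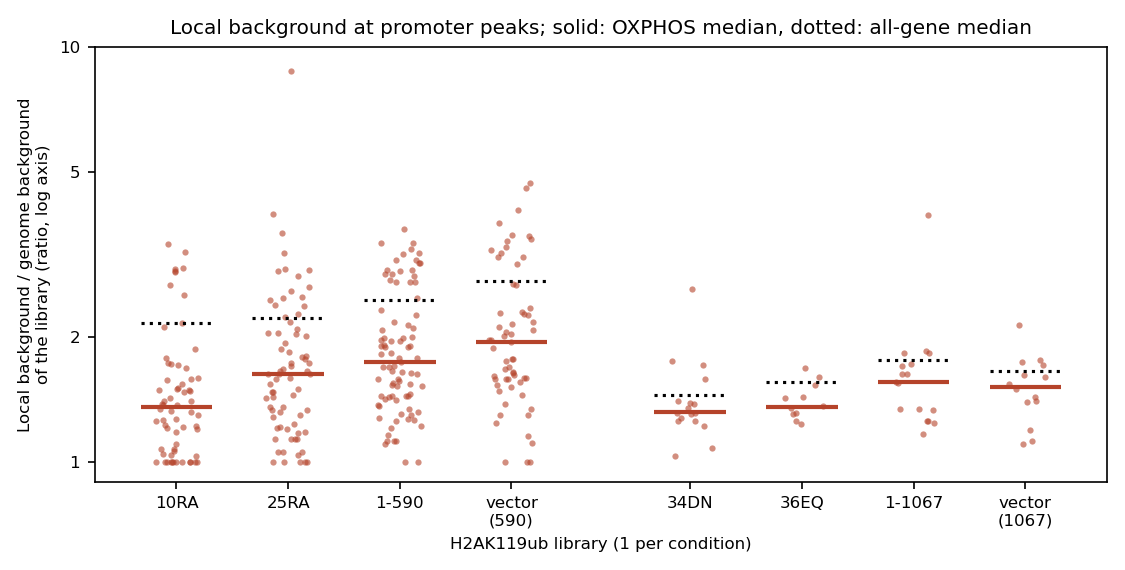
Local background at each OXPHOS promoter peak divided by the genome background of its library (log axis, ratio) in 8 libraries; points are genes, solid lines OXPHOS medians and dotted lines all-gene medians. The OXPHOS median is below the all-gene median in all 8 libraries, for example 1.74 against 2.46 with 1-590.

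Many of these peaks cannot be assigned to an OXPHOS gene alone. The peak also overlapped another gene's promoter for 22 of 64 members with 10RA, 28 of 73 with 25RA, 30 of 85 with 1-590 and 25 of 61 with vector. A TSS on the opposite strand lay within 1 kb of 28 members. Of these 28, 20 were listed with 10RA, 23 with 25RA, 26 with 1-590 and 22 with vector; of the other 74, 44, 50, 59 and 39 were. CpG-rich promoters made up 25 of the 28. Within the CpG-rich members, 18 of 25 were listed with 10RA, 20 with 25RA, 23 with 1-590 and 20 with vector, against 40, 39, 46 and 31 of the 51 without such a TSS, so with 10RA the share was lower beside an opposite TSS.

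BAP1 and ASXL1 peaks were at none of the OXPHOS promoters. The count was 0 of 102 in each of the 4 ChIP-seq libraries, which allows a share of up to 2.94%. Over all genes, promoter peaks were listed at 0.555% with 10RA and 0.366% with 1-590 for BAP1, and at 0.458% with 10RA and 1.07% with 1-590 for ASXL1. Between 10RA and 1-590 no member was listed on either side, against 0.495% of all genes with 10RA only and 0.306% with 1-590 only for BAP1, and 0.389% and 1% for ASXL1. All of the all-gene shares lie below 2.94%, so a count of 0 does not set OXPHOS promoters apart from other genes. In the 4 ChIP lists, 10.6% to 16.8% of peaks had q of 0.05 or less. At that q, 0.0648% to 0.222% of all genes had a promoter peak. The nearest ChIP peaks lay outside the promoters. Within 5 kb of a TSS they included those at Ndufaf2 and Ndufb7 for BAP1 with 10RA, at Uqcrb for BAP1 with 1-590, at none for ASXL1 with 10RA, and at Ndufa11 and Ndufa6 for ASXL1 with 1-590. The Ndufb7 peak held 21 fragments over 6.38 with its summit at -4016 bases (q = 0.0258). A peak inside the Atp5mc1 region, 7238 bases downstream of the TSS, held 19 over 5.46 for BAP1 with 10RA (q = 0.0309). An ASXL1 peak with 1-590 in the region of the Atp5po entry ENSMUSG00000116933.2 lay 35025 bases downstream of its TSS (q = 0.0446). The other ChIP peaks near members had q above 0.05. Counting gene bodies with 5 kb around them, 6 members had a BAP1 peak with 10RA (5.88%, against 9.14% of all genes), 1 with 1-590 (0.98%, against 5.76%), and an ASXL1 peak 3 with 10RA (2.94%, against 7.94%) and 5 with 1-590 (4.9%, against 14%). Gene length was not matched in these shares.

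Other genes of the pathway were counted in the same way. Of 40 assembly and partner genes outside the symbol rule, such as Cycs, Surf1 and Bcs1l, 29 were listed with 10RA, 30 with 25RA, 37 with 1-590 and 28 with vector, and 2 with 34DN, 9 with 36EQ, 11 with 1-1067 and 12 with vector. Of 13 regulators of respiratory genes, 9 were listed with 10RA, 10 with 25RA, 13 with 1-590 and 8 with vector, and 5 with 34DN, 3 with 36EQ, 1 with 1-1067 and 3 with vector. CpG-rich promoters made up 32 of the 40 and 11 of the 13, and the all-gene shares of the same libraries ran from 40.8% to 55.6% in the first set and from 7% to 9.27% in the second. Nrf1, an activator of respiratory genes, was listed with 25RA and 1-590, and Gabpb1, a subunit of the GABP activator, with 1-590 alone in the first set. Gabpa, Yy1, Esrra, Tfam, Tfb1m, Tfb2m, Pprc1 and Ppargc1b were listed in all 4. The Gabpa peaks are those also counted for Atp5pf. Polrmt, the mitochondrial RNA polymerase, was the only one of these 53 genes with a ChIP promoter peak, for BAP1 with 10RA (fold 2.7).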

How the data were processed

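ChIP-seq and H2AK119ub CUT&RUN peak lists of 12 libraries were analysed. MACS3 3.0.3, Picard, SAMtools, Bowtie2 2.5.4 and fastp 0.24.0 are named in the submitters' processing notes, with mm39 as build; whether a control library was used is not given in the sources used here. Each list gives, as deposited, a fold (a ratio of summit pileup to local background made by the authors' caller), a score per peak, and −log10 p and −log10 q from the authors' caller, all made within 1 library and not compared between lists. Peaks were deposited down to p of 0.001 whatever their q, which ran up to 51.4%. The labels state spike-in normalization for CUT&RUN; here summit fragments and local background were recovered from the fold and −log10 p, and 100% of peaks gave a whole number within 0.002 of the deposited −log10 p, so the lists hold unscaled fragments. This recovery and the overlap counts were tested on simulated data. No other columns of per-sample values were used.

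Peaks on chromosomes 1 to 19 and X were overlapped with promoters of 21603 GENCODE vM39 genes (Python 3.11.15, pandas 2.3.3, numpy 2.4.6, scipy 1.17.1, pysam 0.24.0). Where a promoter had several peaks, the one with the largest fold was used. Groups follow the sample titles. With 1 library per condition no test between conditions was run. Each of the 12 comparisons is the count of members with a promoter peak in 1 library of the pair only, beside all genes. Named genes are members listed in all or none of the 8 H2AK119ub libraries, the 5 with the largest fold per library and per side of each comparison, members with a BAP1 or ASXL1 promoter peak (0 were found), and Ndufv1, Ndufs1, Sdha, Uqcrc1, Cox4i1, Cox5a and Atp5f1b; others named were chosen after their values were seen. The values of 1 member are not reported here, though it is counted. The members, gene lists, motifs and comparisons were chosen with earlier results of these data known. Motifs were searched on both strands of the GRCm39 genome, because the RefSeq promoter table at hand has another build. Members on chromosome 18 have no printed sequence. Alternatives were promoters of 1 kb and 5 kb on each side, summit overlap, q of 0.05 or less, lists cut to the shortest of their set by p, pileups scaled to the lowest depth of the set, any annotated TSS, and subunits only.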

Additional observations from a re-analysis of the deposited data

How the results depend on the processing

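Of 80 recomputed shares of members listed in the first library of an H2AK119ub pair, 72 stayed within the interval of the reported share without crossing 50%, 4 moved out of it and 4 turned direction. The 72 include 36EQ against vector with 1 kb promoters, which came to 50%, and 34DN against 1-1067, which had no direction as reported (50%) and ranged from 44.4% to 70%. With pileups scaled to the lowest depth, 10RA against vector turned to 38.5%, and with lists of equal length to 37.9%, against 55.2% as reported; all genes turned too, to 39.4% and 39.5%. With lists of equal length, 25RA against vector moved to 50%, against 73.1%. With q of 0.05 or less, 36EQ turned to 75% against vector and to 71.4% against 1-1067, from 38.5% and 25% as reported, on 8 and 7 members. The all-gene shares of these 36EQ pairs at that q were 64.9% and 52.3%, from 54.9% and 47%. Promoters of 1 kb moved 10RA against 1-590 to 0%, and subunits only moved it to 0% too and 1-590 against vector to 100%. The cause of these changes was not tested, beyond the fewer peaks or members each setting keeps. With q of 0.05 or less, members listed numbered 11 with 34DN, 10 with 36EQ, 7 with 1-1067 and 6 with its vector, and in the first set 61 with 10RA, 73 with 25RA, 85 with 1-590 and 55 with vector. The BAP1 and ASXL1 comparisons gave no share as reported, since no member was listed on either side. With 5 kb promoters BAP1 peaks were listed at 3 members with 10RA only and 1 with 1-590 only, and ASXL1 peaks at 0 and 2; with any annotated TSS, ASXL1 peaks were listed at 1 and 0. No paired analysis was possible because each condition has 1 library; for the same reason no library could be left out.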
